A study of Homo sapiens with 3 samples.

Results

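RAB small GTPase genes were examined by RNA sequencing in HEK293 cells, a long-established line from human embryonic kidney that carries adenovirus DNA, in 3 libraries. Members were all gene symbols made of RAB, a number and at most a letter and a further digit. The rule used the symbol alone and found 62 of 26485 gene names. The study held a single condition, HEK293 grown in DMEM with fetal calf serum, in triplicate (n = 3), so no contrast between conditions existed. Ribosomal RNA was removed from total RNA before strand-preserving libraries were built, although the sample titles speak of mRNA sequencing. Whether these were separate cultures is not stated, so each spread and p-value describes these 3 samples and may be technical.

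RAB proteins are small GTPases that mark the membranes of the secretory and endocytic pathways. In the GTP-bound state they sit on a membrane through a prenylated C-terminus and recruit effectors such as tethers, motors and sorting complexes. Exchange factors load GTP, activating proteins speed its hydrolysis, and GDP dissociation inhibitors return the inactive protein to the cytosol. The questions open here were which RAB names collected counts, how evenly the family was represented, and whether any member varied between replicates beyond counting noise.

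Gene-assigned totals were 412066, 483114 and 289241 counts in replicates 1, 2 and 3, and 90.6% to 91.5% of all records fell in no annotated feature. A single count was worth 2.29, 2.31 and 3.30 CPM (counts per 1000000 of the TMM-scaled library size) in the same order, and 0 counts allow a level of up to 6.86, 6.92 and 9.89 CPM, which is what 3 counts would give. These limits cover counting error alone. Of 12 genes listed as markers of this line and its embryonic lineage, 11 had a count, beside 62.6% of protein-coding names. LIN28A was the highest by mean CPM, with 49, 49 and 19 counts. Very few counts fell on KRT18 (1, 0 and 0), NEFM (0, 1 and 0), PAX8 (0, 0 and 1), WT1 (2, 0 and 0) and INA (2, 1 and 1). PAX2 had none. Of 8 markers of blood, vessel, liver, muscle and islet cells, 1 had a count, the endothelial gene PECAM1 with 5, 3 and 0.

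A small number of members took most of the counts of the family. RAB symbols held 644 of the counts in replicate 1, 658 in replicate 2 and 410 in replicate 3, or 0.145% ± 0.0104 (SD, n = 3) of gene-assigned counts. The share was 0.156% in replicate 1 (exact binomial 95% interval 0.144% to 0.169%). It was 0.136% in replicate 2 (0.126% to 0.147%) and 0.142% in replicate 3 (0.128% to 0.156%). These intervals overlapped, which does not show that the shares were equal, and their difference was not tested. A count in at least 1 library was seen for 47 of 62 members, or 75.8%, against 62.6% of 18580 protein-coding names and 54.7% of all names. There were 7 members, or 11.3%, that never fell below 10 counts, against 10.7% of protein-coding names and 9.68% of all names. The median member had 3.73 CPM, against 2.197 CPM for protein-coding names and 1.10 CPM for all names. Those 7 members together held 72.2% ± 5.80 (SD, n = 3) of all RAB counts, and the 3 highest held 57.1% ± 6.33 (SD, n = 3). These members were picked by their counts, and the same shares were not computed for other names. The concentration is therefore not shown to be particular to the family.

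**Figure D1:**
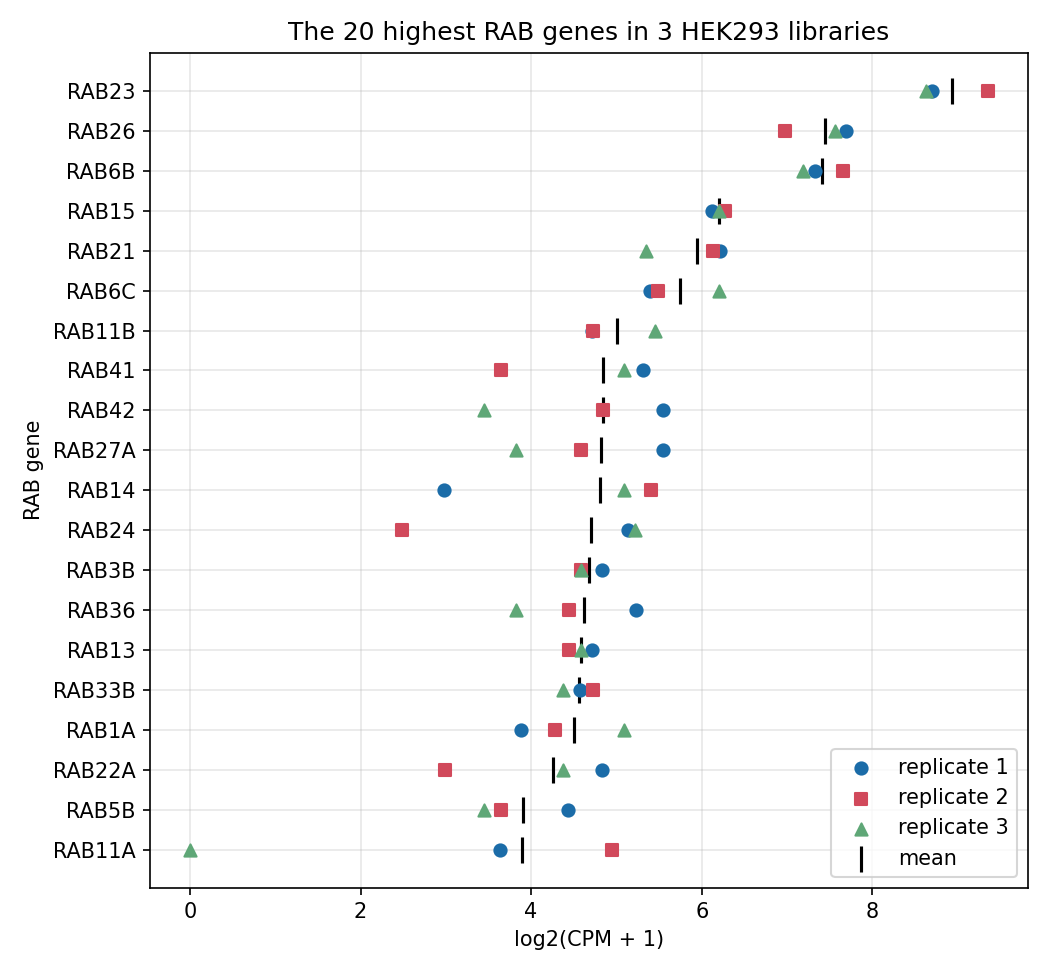
Level of the 20 RAB genes with the highest mean, as log2(CPM + 1) on the x axis, with a point for each of the 3 libraries and a black bar at the log2 of the mean CPM + 1. RAB23 lies above all others in every library, and RAB11A is at 0 in replicate 3.

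RAB23 stood above the rest of the family in CPM. This ciliary RAB, known as a negative regulator of Hedgehog signalling in the mouse, had 182, 283 and 120 counts in replicates 1, 2 and 3, which corresponds to 416, 652 and 396 CPM. It was the highest RAB gene in every library and alone held 33.5% ± 8.24 (SD, n = 3) of RAB counts. Replicate 2 was high and replicates 1 and 3 were close to each other. Per kilobase of merged exon its level was 99.1 ± 28.97 CPM per kilobase (SD, n = 3), still the highest mean of the 62. RAB26 was close to it in replicate 1 (82.7 against 84.5 CPM per kilobase for RAB23) and replicate 3 (75.5 against 80.3). The lead of RAB23 over RAB26 on this scale came mainly from replicate 2 and is not settled. The other ciliary members were at the opposite end: RAB28 had 2, 0 and 0 counts, and RAB34 had none in any library.

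RAB26, which acts on secretory granules and synaptic vesicles, came next with 90, 54 and 57 counts, or 206, 124 and 188 CPM. Replicate 2 was the low library here. RAB6B, the RAB6 form best known from neurons, where it serves retrograde Golgi traffic, had 70, 87 and 44 counts, or 160, 201 and 145 CPM. Both genes kept their places per kilobase, at 69.4 ± 17.2 CPM per kilobase for RAB26 and 28.1 ± 4.78 CPM per kilobase for RAB6B (SD, n = 3 each). The difference between the means of RAB26 (173 ± 42.7 CPM) and RAB6B (169 ± 28.7 CPM, SD, n = 3 each) was smaller than their spread, so their order on the CPM scale is not settled.

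Below these lay 4 further members that had 10 or more counts in all 3 libraries. RAB15, a regulator of endocytic recycling, was the most even, with 30, 33 and 22 counts or 72.4 ± 3.75 CPM (SD, n = 3). RAB21, an early endosome RAB that binds integrins, had 32, 30 and 12 counts or 60.6 ± 18.4 CPM (SD, n = 3), but with 16036 bases of merged exon it fell to place 16 per kilobase, at 3.78 ± 1.14 CPM per kilobase (SD, n = 3). RAB6C, a retrocopy derived from RAB6A, had 18, 19 and 22 counts or 52.5 ± 17.4 CPM (SD, n = 3). Its sequence is close to that of RAB6A, so the split of reads between them is uncertain. RAB11B, a recycling endosome RAB, had 11, 11 and 13 counts or 31.1 ± 10.2 CPM (SD, n = 3).

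Most of the other members were near the limit of what these libraries can show. The next 13 places were taken by RAB41, RAB42, RAB27A, RAB14, RAB24, RAB3B, RAB36, RAB13, RAB33B, RAB1A, RAB22A, RAB5B and RAB11A, with means from 27.8 CPM for RAB41 to 13.8 CPM for RAB11A. Within this run the spread was often as wide as the gaps between genes: RAB42 had 20, 12 and 3 counts, RAB14 had 3, 18 and 10, and RAB24 had 15, 2 and 11. RAB3B with 12, 10 and 7 counts, RAB13 with 11, 9 and 7 and RAB33B with 10, 11 and 6 were more even. No count in any library was seen for 15 members: RAB3A, RAB3C, RAB4B, RAB7B, RAB8A, RAB8B, RAB9B, RAB17, RAB19, RAB27B, RAB33A, RAB34, RAB35, RAB38 and RAB44. This count of 0 allows a level of up to the 3-count value in each library and does not show that the genes are silent.

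The members were then read by role. The 3 ciliary genes held 33.6% ± 8.14 of RAB counts through RAB23, and the 17 genes of ER to Golgi and Golgi transport held 24.6% ± 1.72 (SD, n = 3 each). Of the exonic bases of RAB23, 57.7% are shared with BAG2 on the opposite strand, so the ciliary share can stem in part from BAG2. The 8 genes of regulated secretion held 16.0% ± 3.62, led by RAB26, the 10 genes of recycling and polarised delivery held 10.8% ± 0.575, led by RAB15, and the 11 genes of early and sorting endosomes held 9.81% ± 1.16, led by RAB21 (SD, n = 3 each). The 8 genes of late endosomes, lysosomes and related organelles held 2.52% ± 1.79 (SD, n = 3), with RAB24, linked to autophagy, as the highest. Their shares were 2.80%, 0.608% and 4.15% in replicates 1, 2 and 3, so the share was lowest in replicate 2. The 5 remaining genes (RAB40A, RAB40B, RAB40C, RAB42 and RAB44) held 2.62% ± 0.860 (SD, n = 3).

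**Figure D2:**
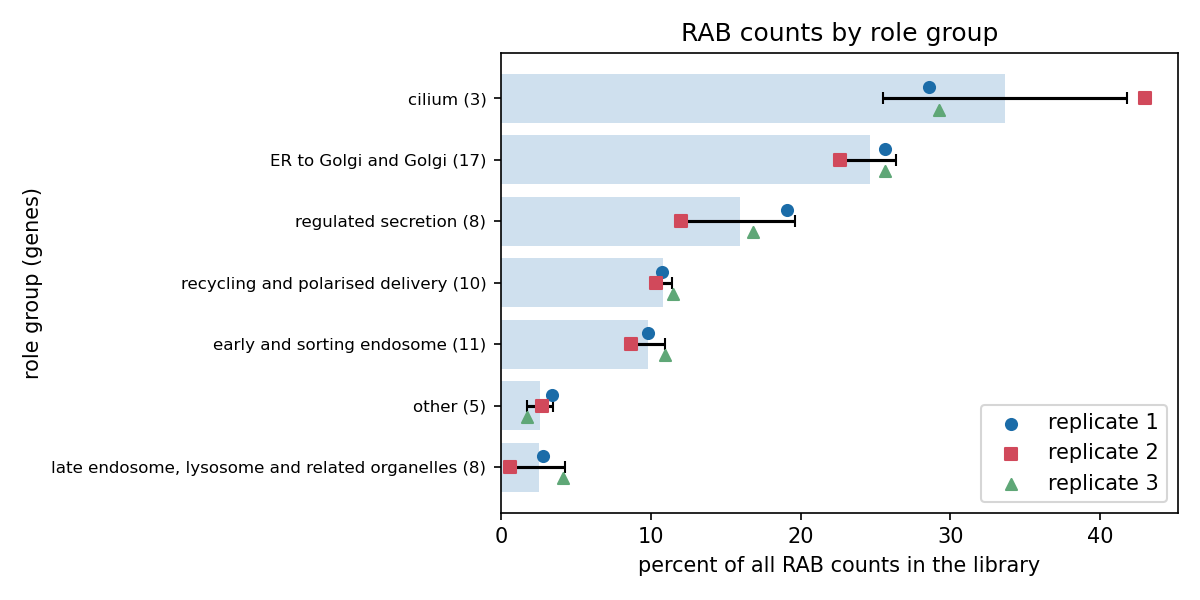
Share of all RAB counts in a library taken by each role group, in percent, with the number of genes in parentheses; bars are means of 3 libraries, error bars are SD and points are libraries. The ciliary group holds 33.6% on average and the late endosome and lysosome group 2.52%.

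Some widely studied members of these routes had few counts and others had more; the genes in this paragraph were picked after their values were seen. RAB7A, which directs late endosome to lysosome traffic, had 0, 0 and 2 counts. RAB5C, an early endosome RAB, had 2, 0 and 0 counts, RAB1B, which serves ER to Golgi transport, had 2, 0 and 0, and RAB2A, also of the early secretory pathway, had 1, 0 and 2. RAB8A and RAB35, both of plasma membrane delivery and recycling, had none. RAB10, which acts in the same steps, had 7, 2 and 0 counts, and RAB18, a RAB of the ER and lipid droplets, had 3, 2 and 2, and their means of 6.87 and 6.02 CPM lay above the family median. RAB11B, RAB14, RAB13, RAB1A and RAB5B lay higher, at places 7, 11, 15, 17 and 19 of 62 by mean CPM. RAB1A, the close relative of RAB1B, had 6, 8 and 10 counts. These values are counts under gene names and, with most records in no feature, do not by themselves give the abundance of the mRNAs.

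Sequences around the start site are shown for the member with the most counts, for RAB6B and for RAB8A, a member with none, to set what the annotated starts look like beside the counts. RefSeq windows (GRCh38.p14, 250 bases before to 50 after the start, on the strand of the gene) were found for 49 of 62 members. RAB23 is given from chr6:57222258-57222557 on the minus strand, RAB6B from chr3:133895833-133896132 on the minus strand and RAB8A from chr19:16111639-16111938 on the plus strand. Capitals mark CCAAT and GGGCGG, each searched on both strands (ATTGG and CCGCCC are the reverse complements), and TATAAA (reverse complement TTTATA), which occurred in none of the 3 windows.
RAB23: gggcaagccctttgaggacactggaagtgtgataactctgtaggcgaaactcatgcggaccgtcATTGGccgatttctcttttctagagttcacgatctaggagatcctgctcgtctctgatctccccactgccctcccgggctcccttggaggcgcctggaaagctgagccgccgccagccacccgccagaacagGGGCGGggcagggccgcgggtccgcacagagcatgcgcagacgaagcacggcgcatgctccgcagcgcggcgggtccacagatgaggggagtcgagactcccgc
RAB6B: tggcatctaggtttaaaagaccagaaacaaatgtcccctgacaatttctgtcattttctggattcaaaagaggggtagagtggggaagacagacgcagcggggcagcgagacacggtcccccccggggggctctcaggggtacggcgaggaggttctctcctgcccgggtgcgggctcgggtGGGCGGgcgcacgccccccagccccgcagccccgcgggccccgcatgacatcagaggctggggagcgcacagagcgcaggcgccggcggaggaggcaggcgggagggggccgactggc
RAB8A: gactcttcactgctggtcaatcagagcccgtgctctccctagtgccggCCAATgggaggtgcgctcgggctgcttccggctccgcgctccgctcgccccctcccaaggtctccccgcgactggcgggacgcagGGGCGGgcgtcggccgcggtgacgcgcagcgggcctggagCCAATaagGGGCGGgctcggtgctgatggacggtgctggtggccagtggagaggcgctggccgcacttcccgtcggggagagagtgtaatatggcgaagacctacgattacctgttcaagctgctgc
The windows had 25, 24 and 30 CG dinucleotides in the order printed, including those inside GGGCGG, so the member without a count was as rich in them as the 2 with many. The median was 25 CG dinucleotides over the 49 members and 14 over 27305 RefSeq windows of the same length. It was 24 in the 5 matched members among the 7 with the most counts and 26.5 in the 12 matched members with no count. GGGCGG or its reverse complement was present in 38 of 49 members, or 77.6%, against 44.6% of all windows. CCAAT was present in 13, or 26.5%, against 35.7%, and TATAAA in 3, or 6.12%, against 12.0%. The 27305 windows were not filtered by gene type, whereas all RAB members are protein-coding, so the compared sets may differ in type. These matches are letters in a window and were not tested for function.

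Exons on the opposite strand lay over part of the family. In GENCODE release 29 (GRCh38), 25 of 62 members, or 40.3%, shared at least 1 exonic base with a gene on the other strand, against 34.1% of protein-coding names. These 25 held 64.0% ± 7.17 of RAB counts, against 75.9% ± 1.28 of the counts of protein-coding names held by names with such an overlap (SD, n = 3 each). The 31 members with no gene opposite held 26.3% ± 8.73 of RAB counts, against 18.4% ± 0.934 for protein-coding names of that class, and the 6 over an opposite intron held 9.70% ± 1.62, against 5.67% ± 1.23 (SD, n = 3 each). Detection did not follow this order in the family. Of the 25 members with an opposite exon 18 had a count (72.0%), and of the 31 with no gene opposite 25 did (80.6%). For protein-coding names these detection shares were 76.4% and 54.4%. Of the 25 members with an opposite exon 5 never fell below 10 counts, and of the 31 with no gene opposite 1 did not, or 3.23%. Among protein-coding names the same shares were 21.7% and 4.21%, and with 5 and 1 members the family's shares were not tested against these. Without RAB23, members with an opposite exon held 46.2% of RAB counts. Which strand the read counter used is not stated in the labels, so a count under such a name can stem from either gene. The same unknown option applies to names with no gene opposite. Their counts, or lack of counts, therefore need not reflect their own mRNA, which was not tested.

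**Figure D3:**
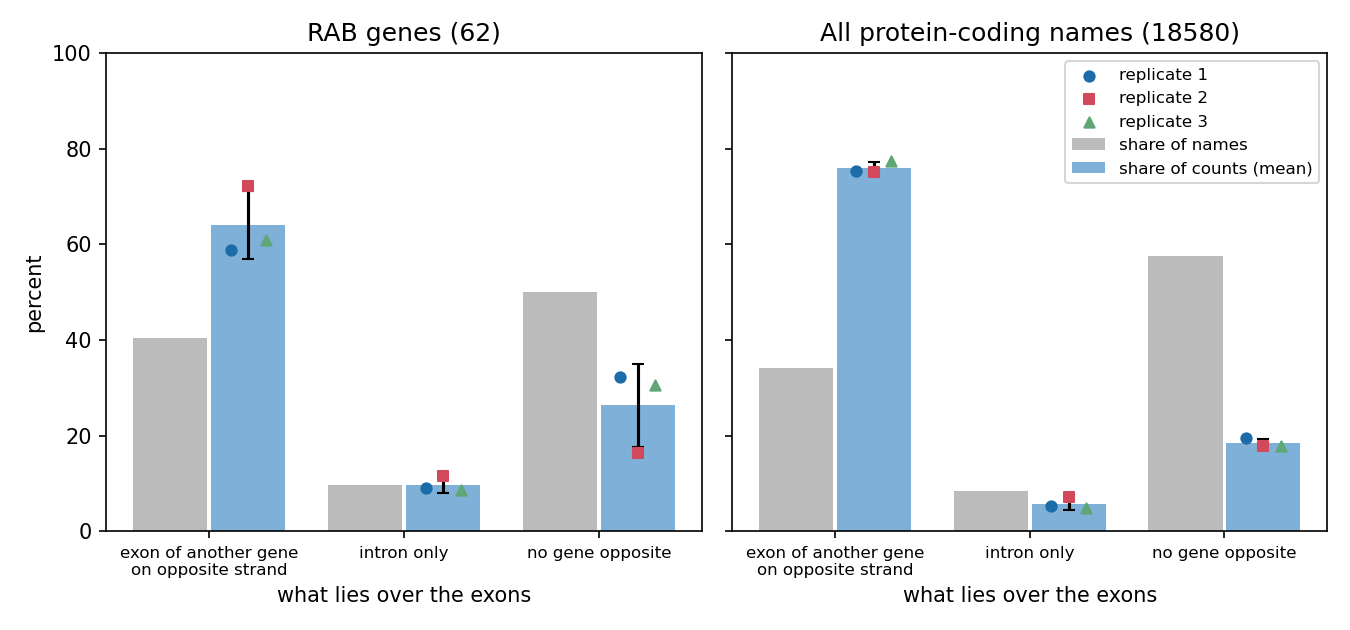
Percent of names (grey) and of counts (blue, mean of 3 libraries with SD; points are libraries) by what lies over the exons on the opposite strand, for 62 RAB genes on the left and 18580 protein-coding names on the right. Names with an opposite exon hold 64.0% of RAB counts and 75.9% of counts of protein-coding names.

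RAB23 had the longest such overlap in the family. It lies on chromosome 6 from 57186992 to 57222314 on the minus strand, and 2842 of its 4926 exonic bases, or 57.7%, are shared with BAG2, a co-chaperone gene on the plus strand. The shared stretch runs from 57186992 to 57189833, at the 3′ end of both genes. RAB23 received 182, 283 and 120 counts, against 12, 42 and 10 for BAG2, and both were highest in replicate 2. RAB6B, on chromosome 3 from 133824239 to 133895836, shares 381 exonic bases with SRPRB, a signal recognition particle receptor gene. RAB6B received 70, 87 and 44 counts, against 0, 1 and 2 for SRPRB. RAB26, on chromosome 16 from 2140803 to 2154165, had no gene on the opposite strand over its exons, and RAB15 lay over an intron of CHURC1-FNTB, which had no count.

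Of the 25 members, 11 had an opposite gene that the count tables name. The member was higher than its partner in every library for 5 of them: RAB23, RAB6B, RAB6C against RAB6C-AS1, RAB11B against RAB11B-AS1, and RAB3D, with 1, 2 and 1 counts, against CCDC159, with none. The partner was higher in every library for 5 others. RAB2B received 1, 3 and 0 counts, against 245, 276 and 209 for TOX4, and RAB5A received 0, 1 and 8, against 104, 157 and 95 for PP2D1. RAB1A received 6, 8 and 10 counts, against 111, 117 and 77 for CEP68. RAB27A received 20, 10 and 4 counts, against 58, 53 and 48 for PIGB, and RAB3A received none, against 2, 1 and 4 for MPV17L2. Neither RAB19 nor its partner SLC37A3 had a count. The orders of RAB3D against CCDC159 and of RAB3A against MPV17L2 rest on levels that, in at least 1 library, lie within what 0 counts allow, and are not settled.

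**Figure D4:**
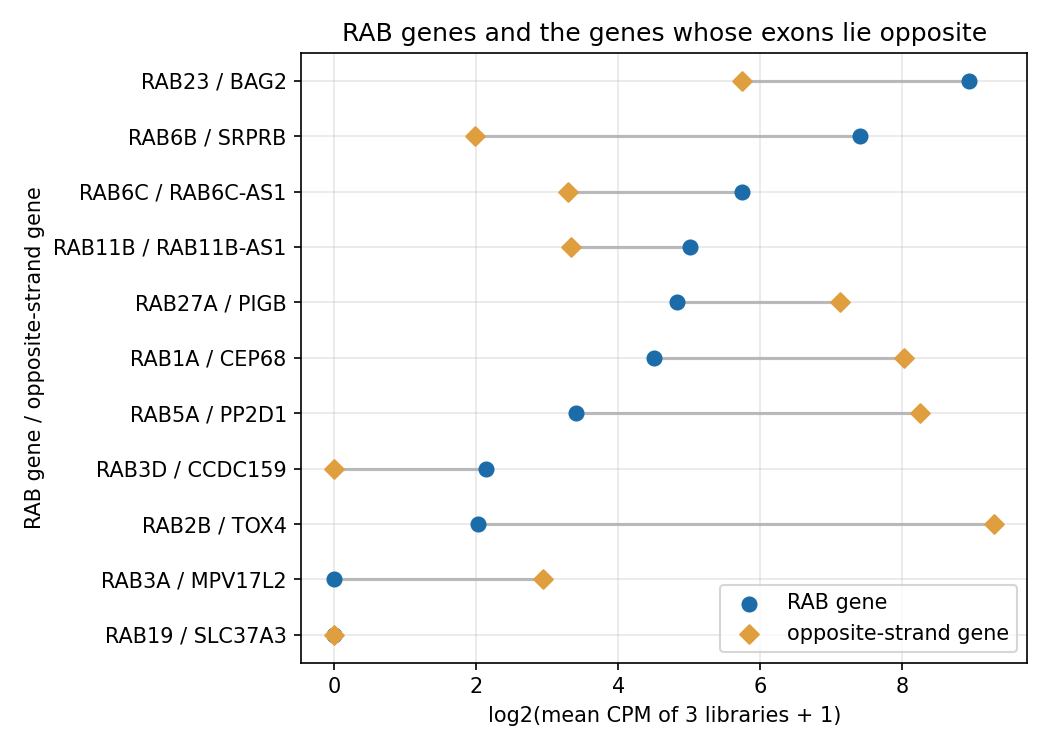
Mean level of a RAB gene (blue circles) and of the gene with the longest named exon overlap on the opposite strand (orange diamonds), as log2(mean CPM of 3 libraries + 1), for the 11 members with a named partner. RAB23 and RAB6B lie above their partners; RAB2B, RAB5A and RAB1A lie below theirs.

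Exons shared with a named gene on the same strand concern 8 members, whose reads in the shared part the counter can set aside as ambiguous. RAB43 shares 3956 of 4991 exonic bases with the readthrough gene ISY1-RAB43 and had 1, 0 and 0 counts, while the readthrough name had none. RAB4B shares 1445 of 3931 exonic bases with same-strand genes, among them the readthrough genes RAB4B-EGLN2 and MIA-RAB4B, and all 3 names had no count. RAB24 shares 926 of 2065 bases with MXD3 and had 15, 2 and 11 counts, against 1532, 1053 and 1072 for MXD3.

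Paralogs of the family were compared within each library. In 11 of 23 pairs of related members the same gene had the higher CPM in all 3 libraries, and in 12 per kilobase of exon. In 7 of the 11 the higher gene had more than 3 counts in every library; in the other 4 its level was within what 0 counts allow in at least 1 library, so their order is not settled. RAB6B exceeded RAB6A, the widely expressed Golgi form, which had 9, 0 and 0 counts. Reads that match RAB6A and RAB6C alike may have been dropped, which would lower RAB6A, so this order is uncertain. RAB1A with 6, 8 and 10 counts exceeded RAB1B with 2, 0 and 0. RAB27A with 20, 10 and 4 counts exceeded RAB27B with none, and RAB33B exceeded RAB33A with none. These orders compare point counts, and some gaps were only a few counts. RAB6B, RAB1A, RAB27A and RAB33B all share exonic bases with opposite-strand genes, so their counts can stem from either gene. The unknown strand option of the counter limits the other pairs as well. Of the unsettled pairs, RAB5B had 9, 5 and 3 counts, against 2, 0 and 0 for RAB5C, and RAB22A had 12, 3 and 6, against 2, 0 and 2 for RAB31, its closest relative. Among the RAB3 genes of regulated exocytosis, RAB3B exceeded RAB3A, RAB3C and RAB3D. RAB3D had 1, 2 and 1 counts, against none for RAB3A and RAB3C, which is within what 0 counts allow and makes up the other 2 unsettled pairs. The log2 ratio of RAB3B to RAB3D was 2.72 ± 0.57 in CPM and 1.18 ± 0.57 per kilobase (SD, n = 3 each). RAB11A and RAB11B, a recycling pair, had no common order in CPM: RAB11A had 5, 13 and 0 counts, against 11, 11 and 13 for RAB11B. Only per kilobase, with the shorter exons of RAB11B, was RAB11B the higher gene throughout. Pairs were left without a test; 0.25 is the smallest two-sided p that exact sign-flip permutation allows with n = 3, and no other test of the ratios was run.

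Replicates differed by more than counting noise for 2 of the 7 members with enough counts, RAB23 and RAB26. Over all genes 45.8% of 2564 tested passed at an adjusted p under 0.05, so a share of 2 in 7 does not set the family apart. RAB23 was 1.34 times its mean in replicate 2 and 0.853 and 0.811 times its mean in replicates 1 and 3 (edgeR's Poisson fit, Benjamini-Hochberg adjusted p = 1.12e-06). RAB26 moved the other way, at 0.721 times its mean in replicate 2 and at 1.19 and 1.09 times its mean in replicates 1 and 3 (edgeR, adjusted p = 0.0229). Of all 2564 genes tested, 22.6% passed with replicate 2 highest and 17.0% passed with replicate 2 lowest. Neither call stood without replicate 2, where adjusted p was 0.843 for RAB23 and 0.795 for RAB26 with edgeR, and where 9.45% of all tested genes still passed. With no filter on low counts 8 of 47 members passed, beside 20.1% of 14482 genes. The RAB26 call was also lost with DESeq2 size factors (adjusted p = 0.0584) and without replicate 1 (edgeR, adjusted p = 0.0859).

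**Figure D5:**
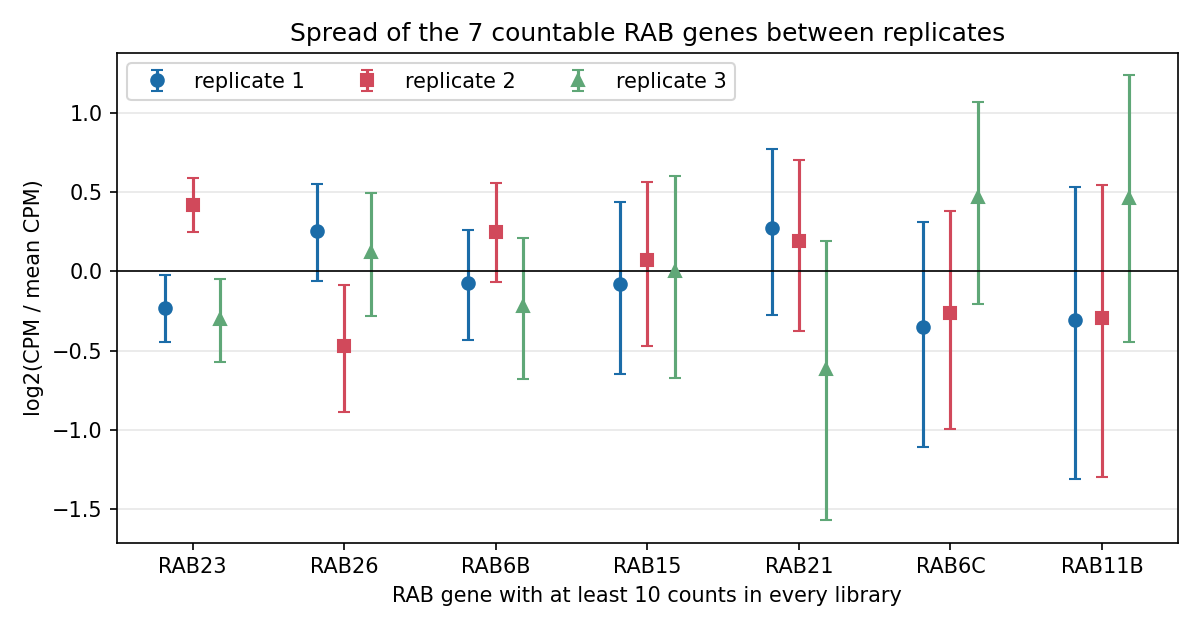
log2 of CPM over the mean CPM of 3 libraries for the 7 RAB genes that were tested; bars are exact Poisson 95% intervals of the count. In replicate 2 RAB23 lies above its mean (1.34 times) and RAB26 below its mean (0.721 times), and the intervals of the other 5 genes overlap.

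The other 5 tested members did not pass, with adjusted p (edgeR) of 0.212 for RAB21, 0.231 for RAB6C, 0.241 for RAB6B, 0.439 for RAB11B and 0.939 for RAB15. The coefficient of variation beyond counting noise ranged from 0 to 0.283 in the 7 members with a median of 0.214, against a median of 0.200 over all 2564 genes. The common coefficient of variation of edgeR's negative binomial model was 0.276 over all tested genes. A negative binomial null at that value called no RAB gene and no other gene. At an unadjusted p under 0.05 in edgeR there were 0 of 7 members and 136 of 2564 genes. The value 0.276 was estimated from the same 3 libraries. This null therefore takes in the spread between them and cannot decide whether replicates differed beyond counting noise.

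Genes that load, switch and read RAB proteins were set beside the RAB genes. Of 106 listed regulators and effectors among the gene names, 78 (73.6%) had a count, against 62.6% of protein-coding names. At least 10 counts in every library were seen for 14 (13.2%), against 10.7% of protein-coding names. The median was 3.61 CPM, against 2.197 CPM for protein-coding names. A count was seen for all 8 genes of prenylation and recycling, for 20 of 23 activating proteins (87.0%), for 25 of 37 effectors (67.6%) and for 25 of 38 exchange factors (65.8%). Their medians were 7.33, 7.12, 1.52 and 2.63 CPM in that order. All of these lie below the 9.89 CPM that 0 counts allow in replicate 3, and differences between the lists were not tested. RABEP1, an effector of RAB5, led with 260, 354 and 208 counts, ahead of RABGAP1L, an activating protein, with 162, 286 and 172. RABGEF1, the RAB5 exchange factor rabex-5, had 159, 94 and 101, DENND4C, an exchange factor of RAB10, had 73, 87 and 56, and DENND2D, an exchange factor of the DENN family, had 46, 63 and 41. Per kilobase of exon RABEP1 had 107 ± 17.1 CPM per kilobase, against 2.53 ± 3.86 for RAB5A, 2.12 ± 0.874 for RAB5B and 0.552 ± 0.956 for RAB5C (SD, n = 3 each), the RAB proteins it binds. Of the 14 tested, 7 passed at an adjusted p under 0.05 (edgeR), again beside 45.8% of all tested genes. RABEP1, RABGAP1L, GCC2, RIC1, MYO5B and CHML were highest in replicate 2, and RABGEF1 was lowest there. Among the genes of prenylation and recycling, the GDP dissociation inhibitor gene GDI2 had 27, 30 and 6 counts, and CHML, a RAB escort protein gene, was the single one tested, with 32, 56 and 21 counts. Exons of RABEP1 share 468 bases and those of RABGEF1 share 1883 bases with opposite-strand exons, so the limit of strand holds for them too.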

How the data were processed

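The deposited values were raw whole-number counts per gene symbol, 1 table per HEK293 library, with 5 summary lines of the read counter, which were left out. Per the submitters' processing notes the authors used Trimmomatic, TopHat2 2.2.5 and HTSeq 0.11.2 with hg38. Annotation, strand option and read layout are not stated there, and HTSeq usually drops reads that align to more than 1 place, which lowers close paralogs. CPM used TMM effective library sizes from edgeR 4.0.16 in R 4.3.3. Variation between replicates was tested on all genes that had 10 or more counts in each library, with edgeR's GLM at a dispersion of 0 and an intercept, the deviance against a chi-square distribution and Benjamini-Hochberg adjustment over all 2564. The fit was tested on simulated data. Those data were Poisson counts with planted changes, so the test does not cover other spread between replicates beyond counting noise. Exons of all transcripts of a gene in GENCODE release 29 (GRCh38) were merged. 23899 of 26485 names were matched by name and 25 by a newer symbol, and all 62 RAB symbols by name. This annotation stands in for the one used to count. Gene lists and pairs were chosen with earlier results of these data known. Named were members with at least 10 counts in every library, the 20 highest, members of paralog pairs, members passing the test and those without a count; from the list of regulators, the 5 highest and those passing; and opposite-strand partners. Other members, markers and same-strand partners were named after their values were seen. Other tools were DESeq2 1.42.0, Python 3.11.15, pandas 2.3.3, scipy 1.17.1 and bedtools. The alternatives were other scalings, filters, statistics, priors and overlaps, and leaving out each replicate.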

Additional observations from a re-analysis of the deposited data

How the results depend on the processing

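The number of genes that varied between replicates, 1175, was 2914 of 14482 with no filter on low counts. It was 263 to 1093 with each replicate left out, lowest without replicate 2. Under a negative binomial null it was 0 (edgeR, 136 at an unadjusted p under 0.05). The dispersion of that null came from the same 3 libraries, so it takes in their spread. For RAB members the 2 calls became 1 with DESeq2 size factors, 8 of 47 with no filter, 0 under the negative binomial null and 0 to 2 with each replicate left out. Without replicate 2, 0 of 9 tested members also had an unadjusted p under 0.05 in edgeR. The adjusted p of RAB23 ranged from 2.97e-08 to 0.991 and that of RAB26 from 0.000776 to 0.999 over the alternatives, with the negative binomial null highest. Members with at least 10 counts in every library numbered 7, against 12 at a minimum of 5, 4 at a minimum of 20 and 8 to 11 with each replicate left out, since fewer libraries have to pass. The RAB share of gene-assigned counts, 0.145%, was 0.184% without the gene with the most counts and 0.0967% without RAB23, an alternative chosen after seeing the data. The share of RAB counts under an opposite exon, 64.0%, was 73.7% for any opposite gene body and, also chosen after seeing the data, 46.2% without RAB23. The numbers of members with a count and of ordered pairs stayed within 1.5 times under every alternative tried. The cause of these shifts was not tested beyond fewer samples, genes or members entering. No paired analysis was possible because the series has a single group. Depth limits 55 of 62 members, which have under 10 counts in at least 1 library.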

Other observations

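Among members too low for the test, 6 differed between replicates when genes with few counts were admitted: RAB6A, RAB5A, RAB39B, RAB11A, RAB24 and RAB14. RAB6A had 9, 0 and 0 counts in replicates 1, 2 and 3 and RAB39B, a RAB gene on the X chromosome linked to intellectual disability, had 11, 0 and 2, so both were highest in replicate 1. RAB5A had 0, 1 and 8 counts and was highest in replicate 3. RAB11A had 5, 13 and 0 and RAB14 3, 18 and 10, highest in replicate 2, whereas RAB24 had 15, 2 and 11 and was lowest there. Adjusted p-values (edgeR's Poisson fit with no filter) ran from 0.00214 for RAB6A to 0.0148 for RAB14, and 20.1% of all 14482 genes with a count passed in the same fit. At such counts the chi-square distribution is an approximation, and a handful of reads decides each call. The values stand here as a description of single libraries.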
